A study of Mus musculus with 16 samples.

Results

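The H3.3 G34W K36R double mutant was compared with H3.3 wild type in mouse C3H10T1/2 cells, a mesenchymal line that can give rise to bone, cartilage, fat and smooth muscle cells. All genes with a mean deposited value of at least 10 over the 4 libraries of the 2 groups were taken, which gave 12492 of the 20325 genes in the table and 4 of the 16 libraries of the series. The double mutant is an H3.3 transgene in which glycine 34 is replaced by tryptophan and lysine 36 by arginine on the same tail. The control cells carried an H3.3 wild-type transgene. Cells of every group were infected with a lentivirus for 2 days and kept in puromycin at 1.5 µg/ml for 4 days, in DMEM with 10% FBS. The transgene was expressed on top of the cells' own H3 genes. Each group has 2 mRNA libraries. The labels leave unsaid whether a pair stems from 2 cultures, and the p-values therefore cover only the spread among these libraries, which may be technical. The purpose stated for the series is to learn how H3.3 residue 34 mutations affect gene expression in mouse mesenchymal stem cells. The tests of the double mutant against H3.3 G34W, against a second double mutant (H3.3 G34W K27R) and against H3.1 wild type, each a transgene group of 2 libraries made in the same way, are given after the main comparison. The groups H3.3 G34R, H3.3 K27R and H3.1 G34W, each again 2 libraries of a transgene with the change its name gives, enter the fit, and their values are given beside some genes.

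H3.3 is the replication-independent form of histone H3 and is placed at active genes, enhancers and repeats by the HIRA and DAXX/ATRX chaperones. Lysine 36 of its tail is methylated by SETD2 and the NSD enzymes over transcribed and intergenic chromatin, and lysine 27 is methylated by PRC2, whose activity on the same tail is hindered by methylated lysine 36. Glycine 34 lies beside lysine 36, its replacement by a bulky residue hinders methylation of lysine 36 on that tail, and G34W is known from giant cell tumour of bone. An arginine in place of lysine 36 cannot take lysine methylation.

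Depth, estimated from the value that 1 read takes in each library, was 34780000 and 38570000 reads in the double mutant, 33000000 and 33010000 reads in the wild type and 26020000 to 49120000 over the series. Across genes the 2 double-mutant libraries correlated at r = 0.9953 with each other and at 0.9097 to 0.9104 with the wild type. The library nearest to them outside their own group was replicate 2 of H3.1 G34W (r = 0.9731 with replicate 1), so the double mutant stood nearer to the H3.1 groups than to the H3.3 wild type it was compared with. The 2 wild-type libraries differed by less than the sampling noise in the 2778 genes counted in whole reads (a ratio of chi-square to its degrees of freedom of 0.9557), though by more over all 12460 genes with enough reads (1.227), and were counted as 1 sample. Over genes in whole reads this ratio was 1.334 in the double mutant, 33.86 in H3.1 wild type and 49.24 in H3.3 G34W, so the spread between replicates that the test pools over groups came mainly from groups other than the 2 compared. None of the 16 mesenchymal stem cell markers listed was at 0 in all 4 libraries, and their summed value was 357339 to 357919 in the double mutant and 310130 to 310255 in the wild type.

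Of the 12492 genes, 1063 (8.51%) were higher and 1127 (9.02%) lower in the double mutant at an adjusted p under 0.05, or 2190 in all (17.5%). Among them were cartilage, matrix and inflammatory genes on the lower side, and cholesterol synthesis, contractile and imprinted genes on the higher side. For the lists below tested against H3.3 wild type, 8.51% called higher and 9.02% called lower are the shares over all genes. List counts near these shares do not stand out. The median log2 fold change was 1.14 over the genes called higher and -1.37 over those called lower, beside -0.01 over all genes tested, and 254 (2.03%) were higher and 411 (3.29%) lower by at least 2 on the log2 scale. The libraries of the 2 groups did not overlap for 91.1% of the genes tested, so the absence of overlap alone marks little here. Both wild-type libraries lay above the other 14 for 269 of the genes called lower (23.9%, beside 4.5% of all genes tested) and below the other 14 for 245 of those called higher (23%, beside 3.92%). For these genes the wild type stood apart from all other groups. Both double-mutant libraries lay above the other 14 for 225 of the genes called higher (21.2%, beside 4.5% of all genes tested). They lay below the other 14 for 204 of those called lower (18.1%, beside 4.93%). Genes called between these 2 groups are picked for such a difference, so the shares do not say which group changed. The number of calls depends on how the spread is estimated: 827 and 843 genes were called without replicate 1 or 2 of the double mutant, and 27 when each of 5 closely agreeing pairs of libraries, the double mutant's among them, was counted as 1 sample.

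**Figure D1:**
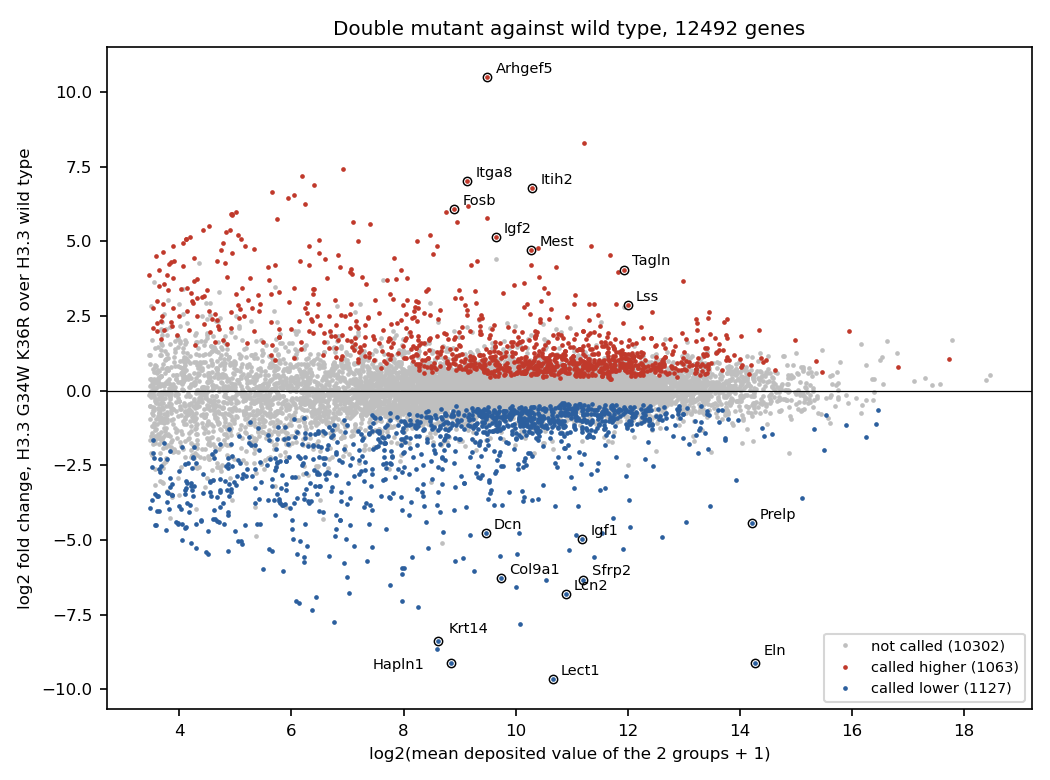
Log2 fold change of the double mutant over wild type (y axis, log2 of value + 1) against the log2 mean deposited value of the 2 groups (x axis) for 12492 genes, each point a gene, red where called higher (1063), blue where called lower (1127) and grey where not called. Eln, at a high mean, has a log2 fold change of -9.13, and Arhgef5 has the highest at 10.49.

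Fold changes also moved with the length of the transcript. The median log2 fold change was -0.62 over 567 genes with a longest protein-coding transcript under 1000 bases, -0.26 from 1000 to under 2000 bases, -0.03 from 2000 to under 4000, 0.17 from 4000 to under 8000 and 0.46 at 8000 bases or more. Of the shortest class 13 genes were called higher and 122 lower, and of the longest 86 higher and 28 lower. The same direction was present against the other 3 groups, with medians of -0.28 in the shortest and 0.46 in the longest class against H3.1 wild type, and in H3.1 G34W against H3.3 wild type (-0.50 and 0.39). Against the same wild type the medians of the shortest and longest class were 0.07 and -0.16 in H3.3 G34R, 0.04 and -0.08 in H3.3 K27R, -0.09 and -0.01 in H3.3 G34W, -0.15 and -0.01 in H3.3 G34W K27R and -0.32 and -0.03 in H3.1 wild type. Among the genes called, 2012 of 2190 were also called, in the same direction, when the median deviation of genes in narrow bins of transcript length was subtracted within each library, an adjustment added with the data in view. The part of transcript length in the results was not tested further, and median lengths are given beside some of the lists.

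**Figure D2:**
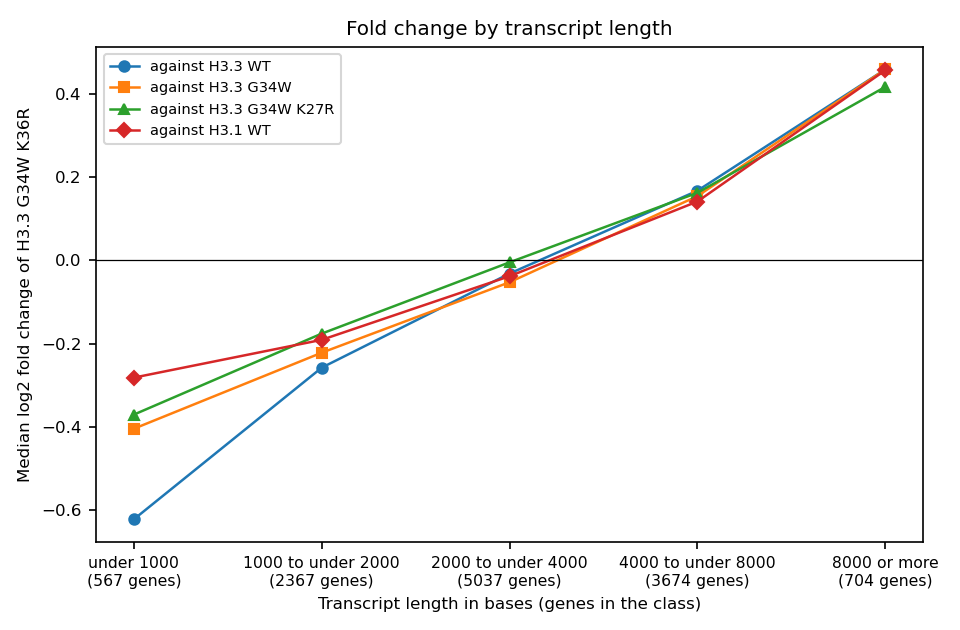
Median log2 fold change of the double mutant (y axis) in 5 classes of transcript length in bases (x axis, with the number of genes), 1 line for each group it was compared with. All 4 lines climb from below 0 in the shortest class (-0.62 against H3.3 wild type) to above 0 in the longest (0.46).

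Among the 15 largest rises were genes of the cell surface, of signalling and of the nucleus. Arhgef5, a guanine nucleotide exchange factor, had values of 1455 and 1426 in the double mutant and 0 in both wild-type libraries, at least 496-fold higher against the floor of 3 reads per library (adjusted p = 3.3e-06). It was not absent elsewhere: its mean was 42.0 in H3.3 G34W, 295 in H3.3 G34W K27R and 1932 in H3.1 wild type. Itga8, the alpha 8 integrin chain of contractile and mesenchymal cells, was at 1081 and 1143 against 8.71 and 6.78, a log2 fold change of 7.0 ± 0.59 (SE). Itih2, a secreted hyaluronan-binding protein chain, was at 2443 and 2536 against 19.4 and 24.2 (6.78 ± 0.49). Both genes were also high in H3.1 wild type, with means of 667 and 3297, and neither differed from it by the test (adjusted p = 0.23 and 0.46). Fosb, a subunit of the AP-1 factor, behaved differently, at 935 and 948 against 17.4 and 9.69, with 32.3 in H3.1 wild type (adjusted p = 0.0032 against it). Phactr1, an actin-regulating phosphatase partner, rose from 13.6 and 15.5 to 1108 and 1129, and Slc8a1, a sodium-calcium exchanger, from 10.6 and 14.5 to 821 and 876.

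Other genes of this group were close to or at 0 in the wild type. The neuronal and muscle membrane genes Chodl, P2ry1, Sorcs1 and Kcnj15, the kinase gene Rps6ka6 and the phosphatase family gene Dusp27 reached 97.0 to 258 in the double mutant, with at most 1 read in each wild-type library. P2ry1, an ADP receptor, was at 97.0 and 100.5 against 0 and 0, at least 34-fold higher, and Tceal3 was at least 49.7-fold higher (133 and 156 against 0 and 0). Tmtc2, an endoplasmic reticulum mannosyltransferase gene, was at least 21.4-fold higher, at 64.6 and 59.9. Hist1h2ao rose from 29.5 and 6.38 to 4571 and 4895, but it belongs to a family of nearly identical replication-dependent H2A genes whose reads cannot be assigned with certainty.

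The largest falls were in extracellular matrix, cartilage and epithelial genes. Lect1, the cartilage protein chondromodulin, was at 1.96 and 4.41 in the double mutant and at 3190 and 3264 in the wild type, a log2 fold change of -9.66 ± 0.50 (adjusted p = 8.7e-06). Eln, the elastin of elastic fibres, had values of 63.7 and 75.8 against 39432 and 39418 (-9.13 ± 0.40, adjusted p = 3.3e-06). In H3.3 G34W the mean of Eln was 147560, above the wild type, and in H3.1 wild type it was 11.7, below the double mutant (adjusted p = 0.0018). Hapln1, which links hyaluronan to aggrecan, was at 0 and 1.76 against 930 and 911, a wild-type level 1044 times that of the double mutant (95% counting interval 274.5 to 8205).

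Keratin genes of epithelium were part of the same set. Krt14 was at 0.978 and 1.76 against 775 and 782, a wild-type level 567.9 times that of the double mutant (95% counting interval 191.2 to 2717). Krt16 was at 0.978 and 0 against 154 and 185, 347.4 times (65.35 to 14520). Slurp1, a secreted skin protein, was at 0 in both double-mutant libraries and at 130 and 136 in the wild type, at least 47.5-fold lower, and its call was lost without either double-mutant library (adjusted p = 0.060 and 0.061). Krt14 and Krt16 were also near 0 in H3.3 G34W K27R and in H3.1 wild type. Of the other falls, Cmtm5 (0 and 0 against 177 and 148) was at least 58.3-fold lower, and the class I gene H2-Q9 (0 and 0 against 193 and 236) at least 76.8-fold lower, although H2-Q genes share reads with near-identical copies. Lcn2, the iron-binding lipocalin of inflammation, was at 39.1 and 26.4 against 3725 and 3810, and no other group in the series had a mean above 131. G0s2, an inhibitor of fat lipase, was at 30.3 and 13.2 against 2092 and 1969. Mal, a membrane protein of myelin and epithelia, was 831.5 times as high in the wild type (95% counting interval 230.4 to 6890). Cytl1, Chrdl1, Fxyd6 and Kif26a completed the 15, with log2 fold changes of -7.24, -7.04, -6.79 and -6.51.

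**Figure D3:**
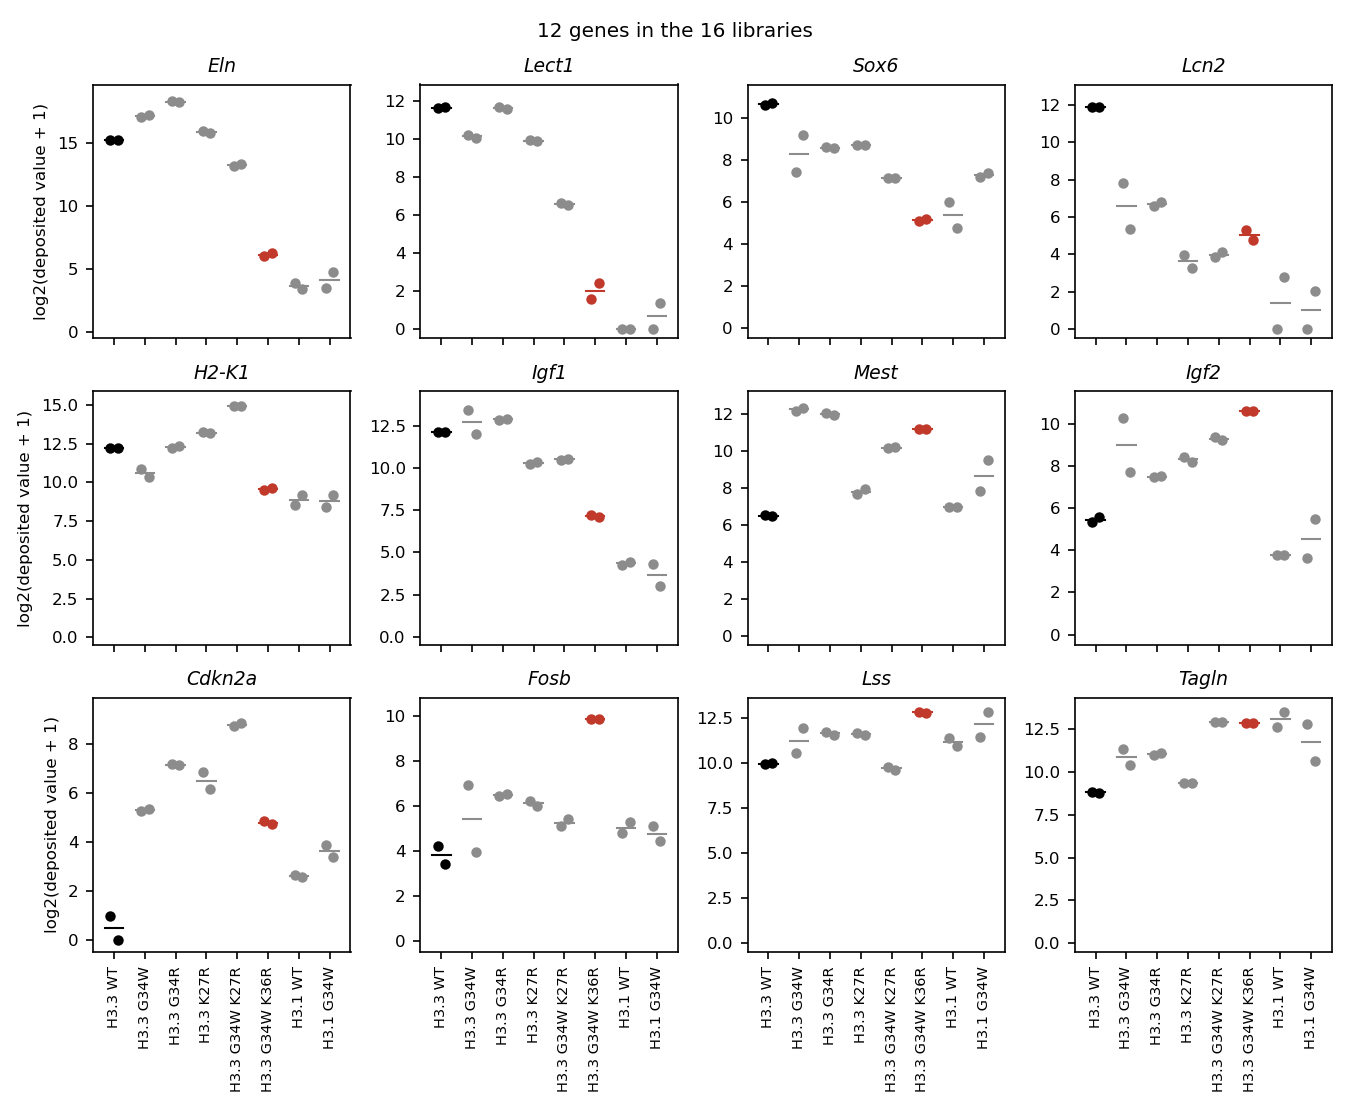
Log2(deposited value + 1) of 12 genes (y axis) in the 2 libraries of each of the 8 groups (x axis), each point a library and each bar the mean of the log2 values of the group, with H3.3 wild type in black and the double mutant in red. Eln and Lect1 are low in the double mutant and the H3.1 groups, Lcn2 and Sox6 are highest in the wild type, and Fosb is highest in the double mutant.

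Most chondrocyte genes tested fell. Of 14 members tested, 10 were called lower and none higher, with a median log2 fold change of -2.37. Sox6, a transcription factor of cartilage, was at 33.3 and 35.3 in the double mutant and at 1606 and 1675 in the wild type (-5.54 ± 0.62, adjusted p = 0.00046). Sox9, its upstream partner, moved less, from 9338 and 9433 to 5856 and 5907 (-0.67 ± 0.18), and lost its call without either double-mutant library (adjusted p = 0.12 and 0.11). The 3 chains of collagen IX, which decorates cartilage fibrils, all fell: Col9a1 was at 28.4 and 15 against 1647 and 1727, Col9a2 at 3.91 and 4.41 against 55.2 and 47.5 (adjusted p = 0.051 without replicate 1 of the double mutant), and Col9a3 at 28.4 and 35.3 against 158 and 153. Comp, a pentameric matrix protein, was at 34.2 and 52.9 against 303 and 301, and Prg4, the joint lubricant lubricin, at 42.3 and 35.5 against 202 and 241. Col2a1, the main cartilage collagen, was at 11677 and 11301 against 48840 and 48957, a log2 fold change of -2.09 ± 1.14 that missed the threshold (adjusted p = 0.24). Without either double-mutant library 7 of the 10 were called. In H3.1 wild type the median of the list against H3.3 wild type was -3.29, with the same wild-type libraries as the reference.

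**Figure D4:**
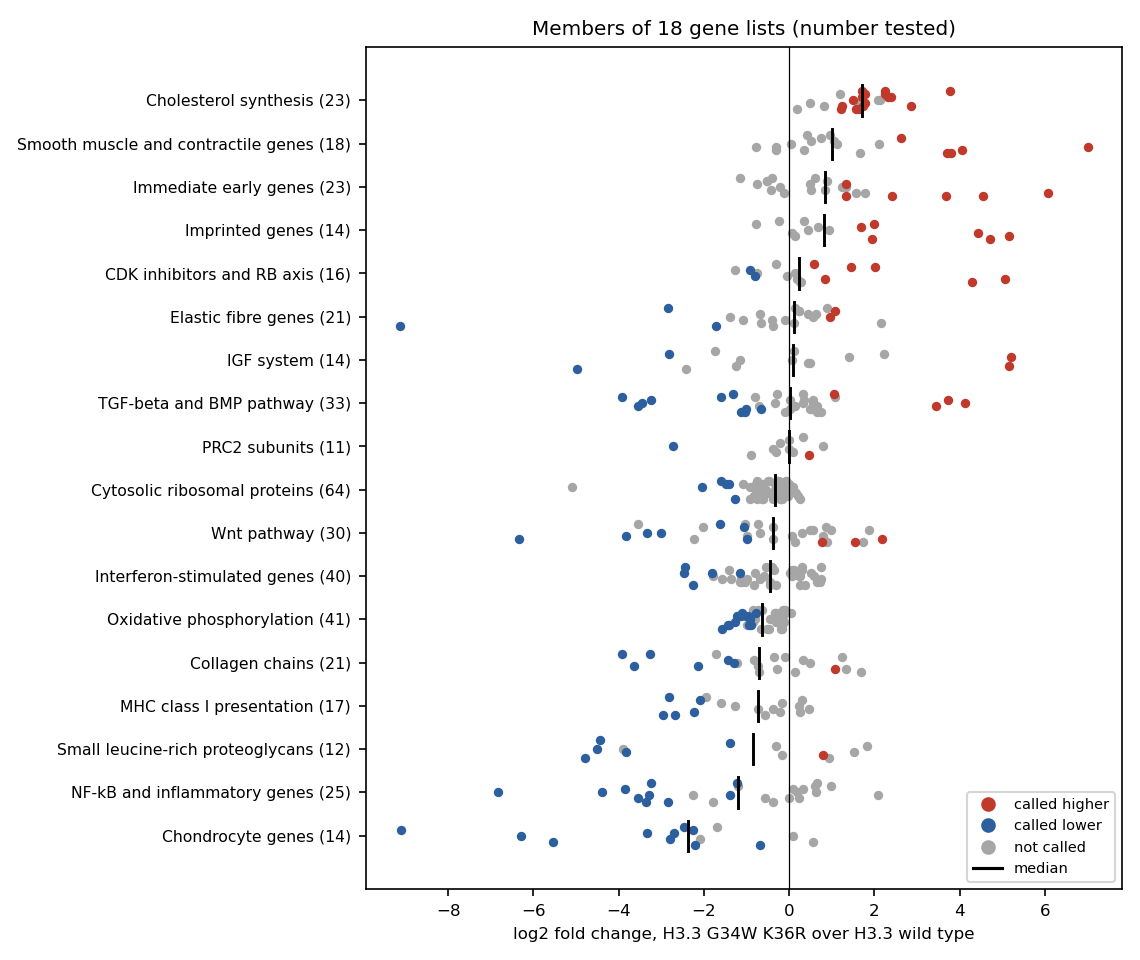
Log2 fold change of the double mutant over wild type (x axis) for each tested member of 18 gene lists (y axis, number tested in brackets), each point a gene, red or blue where called higher or lower, with a bar at the median. Chondrocyte genes have the lowest median (-2.37) and cholesterol synthesis genes the highest (1.72).

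Among matrix genes outside cartilage, more were called lower than higher in the proteoglycan and collagen families, with opposite calls within each. Of 12 small leucine-rich proteoglycans, which bind and space collagen fibrils, 5 were called lower and 1 higher. Dcn (decorin) was at 47.0 and 50.2 in the double mutant against 1403 and 1326, and Prelp at 1637 and 1691 against 36445 and 36101 (-4.45 ± 0.45). Fmod (fibromodulin) was at 113 and 110 against 1638 and 1578. Bgn (biglycan), close in sequence and function to decorin, went the other way and rose by 0.79 ± 0.22 on the log2 scale (adjusted p = 0.035). Without replicate 1 or 2 of the double mutant 3 and 2 of the 5 were called lower, Fmod and Bgn not among them.

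Among 21 collagen chains 6 were called lower and 1 higher. Col8a1, a network-forming chain, was at 69.5 and 67.0 against 1002 and 1084, Col27a1 at 384 and 407 against 3760 and 3832, and Col5a3 at 879 and 872 against 3874 and 3854. The fibrillar chain Col1a2 rose by 1.07 ± 0.27, while its partner Col1a1, at 349916 and 342314 against 107429 and 107318, did not pass (1.69 ± 0.61, adjusted p = 0.086). Without replicate 1 or 2 of the double mutant 2 and 3 chains were called lower and none higher. Of 21 elastic fibre genes 3 were called lower: Eln, Efemp1 (170 and 157 against 1175 and 1178) and Loxl2, a crosslinking oxidase (119 and 120 against 410 and 383). The fibre-associated genes Ltbp3 and Emilin1 rose by 1.08 and 0.96. Both counts of this list lie near the shares over all genes tested (8.51% higher and 9.02% lower).

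Receptors for the matrix and the enzymes that cut it were also changed in both directions. Of 27 integrin and laminin chains, with a median transcript length of 5784 bases, 7 were called higher and 4 lower, or 4 and 2 without either double-mutant library. Itga11, a collagen receptor of fibroblasts, was at 3178 and 3167 against 193 and 170, and Lama5, a basement membrane chain, rose by 3.19 ± 0.54. Lamb3, a laminin chain of epithelial anchoring, was at 32.3 and 38.8 against 2982 and 2906, and Itgb4, the integrin chain that binds that laminin, at 104 and 114 against 1366 and 1328. Serpine2, an inhibitor of serine proteases, fell from 65227 and 65396 to 5228 and 5444 (-3.61 ± 0.25). Plat, the tissue plasminogen activator, rose from 310 and 341 to 1176 and 1165, and the proteoglycan-cutting Adamts9 from 116 and 98.8 to 918 and 942. Adamts4 was at 333 and 309 against 49.0 and 56.2, with adjusted p = 0.058 and 0.051 without replicate 1 or 2 of the double mutant.

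A number of inflammatory genes fell. Of 25 NF-kB and inflammatory genes 10 were called lower and none higher, with a median log2 fold change of -1.19. Against the same wild type the list's median was -1.57 in H3.3 G34W, -1.53 in H3.3 G34R and -1.05 in H3.3 K27R. It was -2.03 in H3.1 G34W, -1.14 in H3.1 wild type and -0.26 in H3.3 G34W K27R. A negative median was therefore shared by all other groups, with the same wild-type libraries as reference. The monocyte chemokine Ccl2 was at 1025 and 934 in the double mutant and 7148 and 7007 in the wild type (-2.85 ± 0.46). Cxcl5, a neutrophil chemokine, was at 771 and 760 against 16137 and 16052, and complement C3 at 1510 and 1433 against 21211 and 21327. Both Cxcl5 and C3 were highest in the wild type among the 8 groups, and their adjusted p of 0.031 and 0.033 rose to 0.11 without either double-mutant library and above the threshold without other single libraries. The NF-kB inhibitor gene Nfkbia and the subunit gene Relb fell by 1.23 and 1.38. Serpina3f, Serpina3i and Serpina3n also fell, although this inhibitor family holds near-identical copies. Without either double-mutant library 4 of the 10 genes were called. Against H3.3 G34W, the sign was the other way for several of them: Ccl2, with a mean of 136 there, was higher in the double mutant (adjusted p = 0.00055), and 11 of the 25 were called higher and 1 lower.

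Some genes of antigen presentation were lower, and few genes of the interferon response were called. Of 17 MHC class I presentation genes, with a median transcript length of 1628 bases, 5 were called lower and none higher. H2-K1, which presents peptides on the cell surface, was at 733 and 782 against 4811 and 4837 (-2.67 ± 0.33), H2-D1 at 1251 and 1237 against 5745 and 5943, and the immunoproteasome subunit Psmb9 at 8.80 and 12.3 against 81.3 and 94.0. Of 40 interferon-stimulated genes 5 were called lower and none higher, beside 9.02% called lower over all genes, among them Ifit3 (314 and 329 against 1126 and 1134) and Oas1a (7.83 and 7.93 against 39.0 and 57.5). The list's median was -0.45, and with replicate 1 or 2 of the double mutant left out 1 and 0 members were called. Of 15 interferon-inducible GTPases 2 were called higher and 1 lower. Gvin1 rose from 852 and 808 to 4217 and 4236, while Gbp5, of the same class, was at 0.978 and 3.57 against 25.8 and 24.2. Gbp5 lost its call without replicate 1 of the double mutant. Psmb9 lost its call without either double-mutant library and also without other single libraries, 8 in all. H2 genes, Ifit3 and Gvin1 share sequence with close relatives, so their single values are uncertain.

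Imprinted genes, which are expressed from 1 parental copy and many of which act in growth, were called only on the higher side. Of 14 tested, with a median transcript length of 4572 bases, 6 were called higher and none lower, and the median log2 fold change was 0.81. Igf2, a fetal growth factor, was at 1552 and 1556 in the double mutant and 39.7 and 46.5 in the wild type (5.14 ± 0.88, adjusted p = 0.0042). Mest was at 2364 and 2393 against 92.0 and 89.1, and Dlk1, a membrane protein of precursor cells, at 441 and 425 against 22.3 and 16.5. All 3 were also above H3.1 wild type, where their means were 12.8, 125 and 12.4 (adjusted p = 0.00061, 0.00037 and 0.0013). H3.3 G34W had a mean of 4912 for Mest, above the double mutant but not past the threshold (adjusted p = 0.074). Grb10, Ndn and Peg10 rose by 1.69, 1.94 and 1.99, and Peg10 lost its call without either double-mutant library (adjusted p = 0.068 and 0.065).

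The 2 ligands of the insulin-like growth factor system went in opposite directions. Igf1, the ligand of postnatal growth, was at 149 and 135 against 4502 and 4506, so that it fell by 4.98 ± 0.55 on the log2 scale, while Igf2 rose. Of the binding proteins, Igfbp2 was at 680 and 697 against 14.5 and 21.3 (5.21 ± 0.55), and Igfbp3 at 12.7 and 13.2 against 106 and 90.1. Igfbp3 lost its call without either double-mutant library (adjusted p = 0.070 and 0.066). Of the 14 genes of the system 2 were called higher and 2 lower, or 2 and 1 without either double-mutant library.

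Cell cycle inhibitors of the Cdkn2 locus were expressed at low levels in the double mutant and hardly at all in the wild type. Cdkn2b, which encodes p15, was at 36.2 and 29.1 against 0 and 0, at least 11.2-fold higher (adjusted p = 0.00052). Cdkn2a, which encodes p16 and ARF from shared exons, was at 27.4 and 25.6 against 0.968 and 0, 54.7 times the wild-type reads (95% counting interval 9.41 to 2194). H3.3 G34W had means of 38.5 for Cdkn2a and 53.4 for Cdkn2b, and its difference from the double mutant did not pass the test (adjusted p = 0.23 and 0.30). H3.3 G34W K27R had means of 442 for Cdkn2a and 778 for Cdkn2b, above the double mutant (adjusted p = 1.5e-05 and 8.7e-05). The means were 141 and 165 in H3.3 G34R, 92.3 and 140 in H3.3 K27R and 5.10 and 3.69 in H3.1 wild type. The H3.3 wild type had the lowest mean of all groups for both genes. Of 16 genes of the CDK inhibitor and RB axis 6 were called higher and 2 lower. Cdkn2a and Cdkn2b, 2 of the 6, had a wild-type mean under 10. They passed the filter only through the double mutant, so they could not have been called lower. Ccnd2, cyclin D2, rose from 3833 and 3778 to 15494 and 15378, Cdkn1b from 1465 and 1495 to 4048 and 4012, and Cdkn1a, which encodes p21, fell by 0.91 ± 0.26. Without either double-mutant library 3 genes were called higher and none lower, and Cdkn1b was not among them (adjusted p = 0.058 and 0.057).

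No proliferation gene passed the threshold. None of 33 S phase genes and none of 30 G2 and M phase genes was called by limma, with medians of -0.66 and -0.00. At the 2 highest members of the latter list, Mki67, the proliferation antigen, had values of 18179 and 18781 against 12722 and 12782 (0.54 ± 0.68), and Top2a of 18055 and 18300 against 24144 and 24008. Of the replication genes, Pcna was at 6653 and 6729 against 11253 and 11108 (-0.74 ± 0.38, adjusted p = 0.21). When the 4 H3.1 libraries were left out of the fit, an alternative added with the data in view, 13 S phase genes were called lower and 2 G2 and M phase genes higher.

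Some immediate early genes, which are switched on within minutes of a growth signal or of stress, were higher. Of 23 tested 6 were called higher and none lower, with a median of 0.84. Fos was at 6305 and 6252 in the double mutant and at 279 and 259 in the wild type, Egr1 at 14883 and 15332 against 1126 and 1227 (3.68 ± 0.90), and Zfp36, which destabilises cytokine mRNAs, at 2332 and 2340 against 450 and 428. Fos was at 5667 and 6655 in H3.3 G34R and at 5399 and 218 in H3.3 G34W, whose libraries differed widely. The calls of Fos, Egr1 and Zfp36 were lost without either double-mutant library (adjusted p = 0.12, 0.080 to 0.083 and 0.14), while Fosb stayed called, and 2 and 1 genes of the list were called in these fits.

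Some contractile genes of smooth muscle rose. Of 18 tested 5 were called higher and none lower, with a median of 1.0. Tagln, an actin-binding protein, was at 7376 and 7333 against 453 and 433 (4.05 ± 0.69), Lmod1, which nucleates actin filaments, at 2554 and 2513 against 185 and 180, and Synpo2, a Z-disc protein, at 368 and 400 against 28.1 and 29.1. Myl9, a regulatory myosin light chain, rose from 1533 and 1528 to 9517 and 9470, by 2.63 ± 0.60. Acta2, smooth muscle actin, the most abundant of the list, was at 153841 and 152871 against 48528 and 48740 and narrowly missed the threshold (1.66 ± 0.52, adjusted p = 0.053). Of these, Synpo2 was above H3.1 wild type (adjusted p = 0.035), and Tagln and Lmod1 were not called against it (0.78 and 0.35).

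Many contractile and immediate early genes are known targets of the serum response factor, which binds the CArG box. The window searched was the 250 bases before the RefSeq start site. A CArG box on either strand was present there in 3 of 15 smooth muscle genes with a promoter entry and in 2 of 17 immediate early genes. The share was 1.46% of 8875 tested genes with an entry. Myl9 and Zfp36, a called member of each list, are shown with the box in capitals (RefSeq, GRCm38.p6, 5′ to 3′ on the strand of the gene).
Myl9 (chr2:156775263-156775352, + strand): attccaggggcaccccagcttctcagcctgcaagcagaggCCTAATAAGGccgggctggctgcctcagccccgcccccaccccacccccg
Zfp36 (chr7:28379237-28379326, - strand): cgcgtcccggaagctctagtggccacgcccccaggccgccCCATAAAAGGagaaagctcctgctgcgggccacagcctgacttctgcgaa

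Cholesterol synthesis was the list with the most calls on the higher side. Of 23 genes tested 16 were called higher and none lower, with a median log2 fold change of 1.72, and all 23 had a value above 0 on that scale. The enzymes spanned the pathway: Idi1, which isomerises isopentenyl diphosphate, rose from 4435 and 4502 to 23449 and 23657 (2.40 ± 0.36), and Fdps by 2.25 ± 0.45. Lss, which closes the sterol rings, was at 7259 and 7120 against 986 and 1001, and Sc4mol, which removes methyl groups from the ring, at 22236 and 22330 against 4493 and 4518. Hsd17b7 rose by 2.25 ± 0.27. The regulators Srebf2 (0.80 ± 0.26, adjusted p = 0.055) and Insig1 (1.2 ± 0.40, 0.068) did not pass. Without either double-mutant library 7 of the 16 were called. Against the same wild type the list's median was 0.98 in H3.3 G34W, 1.34 in H3.3 G34R and 0.90 in H3.3 K27R. It was 1.35 in H3.1 G34W, 0.855 in H3.1 wild type and -0.68 in H3.3 G34W K27R. A positive median was therefore not limited to the double mutant, and all these medians share the wild-type libraries as reference.

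The promoters of these genes were examined because their members moved together. A CCAAT box (CCAAT on either strand) lay in the same window in 15 of 15 cholesterol genes that matched a RefSeq entry by symbol, beside 41.2% of 8875 tested genes and 37.5% of all 27025 entries. The sterol element written as TCACNCCAC, searched on both strands, was in none of the 15 and in 1.22% of the tested genes, and no match says only that these letters are not in this window. Some of the called genes are shown with each CCAAT, or ATTGG where it lies on the other strand, in capitals (RefSeq, GRCm38.p6, 5′ to 3′ on the strand of the gene).
Idi1 (chr13:8885546-8885605, + strand): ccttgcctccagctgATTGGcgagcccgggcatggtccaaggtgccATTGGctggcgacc
Lss (chr10:76531528-76531562, + strand): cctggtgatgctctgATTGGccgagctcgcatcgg
Sc4mol (chr8:64733614-64733689, - strand): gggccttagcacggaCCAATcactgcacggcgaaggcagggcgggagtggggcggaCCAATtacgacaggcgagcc
Hsd17b7 (chr1:169969206-169969293, - strand): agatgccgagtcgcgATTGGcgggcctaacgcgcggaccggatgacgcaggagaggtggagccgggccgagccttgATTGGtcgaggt

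Signalling genes were called in both directions, beside 8.51% called higher and 9.02% called lower over all genes tested. Of 30 Wnt pathway genes 3 were called higher and 7 lower, or 2 and 4 to 5 without either double-mutant library. Wnt5a, a ligand of the non-canonical branch, rose by 2.17 ± 0.23, while the secreted Wnt antagonists Sfrp2 (61.6 and 52.9 against 4599 and 4732) and Frzb (16.6 and 26.4 against 351 and 274) fell. The transcription factor Tcf7 was at 35.2 and 52.0 against 362 and 343. Of 33 TGF-beta and BMP genes 4 were called higher and 10 lower, or 1 and 5 to 6 without either double-mutant library. The BMP antagonists did not move as 1 group: Grem1 rose by 3.45 on the log2 scale, and Nog and Chrd fell by 3.25 and 1.61. Target genes of BMP signalling, Id1, Id3 and Smad6, fell by 1.32, 1.02 and 1.03, and Bambi, a decoy receptor, by 3.45. Tgfbi, a secreted TGF-beta target, was at 437 and 428 against 41.6 and 24.2, with adjusted p = 0.082 and 0.081 without replicate 1 or 2 of the double mutant.

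Of the Notch and Hedgehog genes, 3 of 17 fell and 1 rose, or 2 and 1 without either double-mutant library. The ligand Jag2 was at 13.7 and 18.5 against 231 and 203 and the Notch target Hey1 at 83.2 and 78.5 against 296 and 347, while Gli2, a Hedgehog effector, rose from 375 and 396 to 1219 and 1161. Of 21 FGF and MAPK feedback genes 2 were called higher and 3 lower, near the shares over all genes tested (8.51% and 9.02%). The median log2 fold change of this list was 0.50, and 15 members were above 0. The ligand Fgf2 (18.7 and 15 against 175 and 146) and the receptor Fgfr3 (154 and 160 against 1315 and 1325) fell. Fgf18 rose by 1.15 ± 0.26 and lost its call without replicate 1 of the double mutant (adjusted p = 0.10).

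Few genes for the proteins that write and remove methylation at the 2 lysines were called, and their number depended on the libraries fitted. Of 11 PRC2 subunits 1 was called lower and 1 higher, with a median of -0.01. The accessory subunit Phf19, which binds methylated lysine 36 of H3 through its Tudor domain, was at 50.9 and 82.0 in the double mutant and 424 and 443 in the wild type (-2.73 ± 0.48, adjusted p = 0.0046). It was also low in H3.1 wild type (56.9) and in H3.3 G34W K27R (58.0), and near the wild type in H3.3 G34W (331, adjusted p = 0.0022 against the double mutant). The core subunits were not called: Ezh2 had values of 2055 and 2214 against 2029 and 2006, Eed of 905 and 982 against 1205 and 1244, and Suz12 of 4433 and 4374 against 2537 and 2540 (0.79 ± 0.25, adjusted p = 0.051). Aebp2 rose by 0.47 ± 0.14 and lost its call without either double-mutant library (adjusted p = 0.12 and 0.17).

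Of 14 enzymes that methylate or demethylate lysines 36 and 27, only the lysine 27 demethylase Kdm6b was called, at 2404 and 2341 against 868 and 908, with adjusted p = 0.079 and 0.072 without replicate 1 or 2 of the double mutant. In the fit without the H3.1 libraries 7 of the 14 were called higher and 2 lower, with the wild-type libraries counted separately 5 and 2, and with the length adjustment 2 and 3. Setd2 was at 5213 and 5382 against 2631 and 2698 (0.99 ± 0.35, adjusted p = 0.080), Nsd1 at 6553 and 6660 against 3886 and 3778 (0.79 ± 0.35), and Whsc1 at 4092 and 3992 against 3862 and 3888. Of 20 PRC1 subunits Bmi1 and Rybp rose by 0.93 and 0.70 and Cbx2 fell by 1.28, and Rybp and Cbx2 lost their calls without either double-mutant library (adjusted p = 0.060 to 0.11). The H3.3 genes H3f3a (13489 and 13355 against 16420 and 16327) and H3f3b (29642 and 29621 against 25502 and 25555) were not called. Whether their reads include the transgene cannot be told from a gene table, so they do not check the expression of the mutant histone.

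Some genes of the fat and bone lineages were called. Of 17 adipocyte genes 3 were called lower and none higher: Cebpa, a master regulator of fat cells, was at 130 and 174 against 1149 and 1169, Dgat2 at 171 and 156 against 1316 and 1293, and Zfp423 at 54.8 and 40.6 against 288 and 306 (adjusted p = 0.067 without replicate 2 of the double mutant). Pparg was not called (1107 and 1223 against 886 and 838). Of 12 osteoblast genes 2 were called higher and 3 lower, or 2 and 1 without either double-mutant library. Tnfrsf11b, the decoy receptor that restrains osteoclasts, rose from 3554 and 3421 to 18896 and 18497 (2.42 ± 0.23), and Alpl, the phosphatase of mineralising cells, was at 4.89 and 5.29 against 52.3 and 45.5. Runx2 was at 2426 and 2449 against 1945 and 2085 and was not called (adjusted p = 0.30).

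Developmental transcription factors were called more often as higher than as lower, 15 and 6 of 47, or 8 and 3 to 4 without either double-mutant library. Tbx20, a cardiac factor, was at 65.5 and 71.4 against 1.94 and 0.969, 47.1 times the wild-type reads (95% counting interval 15.9 to 231.7), and Foxp2 rose by 2.61 ± 0.31. On the other side Lhx9 was at 1.96 and 0.882 against 90.02 and 95.9, Pax3 at 10.8 and 12.3 against 142 and 131, and Tbx2 at 9.78 and 3.53 against 87.1 and 87.2. Tbx3, the close relative of Tbx2, rose by 1.83 ± 0.27. Prrx1, a limb mesenchyme factor, was at 55497 and 55506 against 28002 and 28241 and lost its call without either double-mutant library (adjusted p = 0.12). Of 14 cadherins and protocadherins 5 rose and none fell, or 2 and none without either double-mutant library, with Cdh18 at 583 and 593 against 14.5 and 20.3 and Cdh11, the cadherin of mesenchyme, at 25730 and 26115 against 7242 and 7254.

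Some genes of the respiratory chain were lower, and they have short transcripts. Of 41 oxidative phosphorylation genes 14 were called lower and none higher, with a median log2 fold change of -0.63 and a median transcript length of 1079 bases. That length is close to the border of 2 classes. Over all genes their medians were -0.62 (under 1000 bases) and -0.26 (1000 to under 2000). Ndufa1, a subunit of complex I, was at 542 and 554 against 1643 and 1608 (-1.57 ± 0.33), and Cox6a1, of complex IV, at 3312 and 3150 against 7811 and 7807. With the length adjustment 15 were called lower and the median was -0.26, and without replicate 1 or 2 of the double mutant 1 and 0 were called. Of 64 cytosolic ribosomal protein genes, with a median length of 959 bases, 5 were called lower and none higher. Over all genes tested 9.02% were called lower, so this count does not stand out. Rps29 was among the 5 (6932 and 6632 against 20515 and 20437). The median of the ribosomal list was -0.33 and became -0.10 with the length adjustment, and 1 gene was called without either double-mutant library.

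Of each list of markers of other cell types most members were under 10, and the summed values differed between the groups. Of 20 epithelial markers Epcam, Cldn3, Cldn6 and Elf3 were at 0 in all 4 libraries and 14 were under 10 in all 4, and the summed value was 3937 to 3987 in the wild type and 249 to 252 in the double mutant, with Krt14 and Lamb3 the members called. Of 13 haematopoietic markers Cd3e, Emr1 and Tyrobp were at 0, 8 were under 10, and the sum was 496 to 501 in the wild type and 273 to 314 in the double mutant. Of 14 endothelial markers Cldn5, Sox17 and Robo4 were at 0, 9 were under 10, and the sum was 4101 to 4116 in the wild type and 2280 to 2345 in the double mutant. Of 13 neuronal markers Nefl, Nefm, Elavl4 and Dcx were at 0 and 9 were under 10, while the sum was 665 to 689 in the wild type and 1564 to 1623 in the double mutant and Stmn2 was at 1381 and 1444 against 26.1 and 23.2 (adjusted p = 0.089 and 0.092 without replicate 1 or 2 of the double mutant). Stmn2 made up most of the neuronal sum in the double mutant. Only 4 neuronal markers were tested, 1 called higher and 1 lower, with a median log2 fold change of -0.20. Of 17 skeletal muscle markers Myf6 and Myh8 were at 0, 9 were under 10, and the sum was 706 to 726 in the wild type and 231 to 234 in the double mutant. Of 13 pluripotency markers 11 were under 10, Pou5f1, Zfp42, Dppa3, Utf1, Lin28a and Sall4 were at 0, and the sum was 10549 to 10645 in the wild type and 4780 to 4814 in the double mutant. Nearly all of it came from Klf4, a factor of many cell types, at 4799 and 4762 against 10541 and 10632 (adjusted p = 0.15). A change in the make-up of the cultures and a change within the cells cannot be told apart in bulk RNA, and the part of these markers in the results above was not tested.

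The double mutant was also compared directly with H3.3 G34W, with the same genes and fit. Here 1820 genes (14.6%) were higher and 1978 (15.8%) lower in the double mutant. The series has no K36R single mutant, and the labels name no batch. A difference between sets of libraries therefore cannot be told apart from the K36R change. Eln was again among the largest falls, with a log2 fold change of -11.03. Olfm2, a secreted olfactomedin, had one of -9.80 (1.96 and 2.64 against a mean of 5678 in H3.3 G34W), and Fxyd6, a subunit of the sodium pump, one of -9.64. Among the largest rises, Itih2 was higher by 6.49, Pkp2, a desmosome protein, by 6.19 (681 and 727 against a mean of 9.38), and Serpina3g by 6.78 (874 and 854 against a mean of 7.27). Serpina3g had values of 1972 and 1983 in the wild type and was not called against it. H3.3 G34W was not alone in being low. The mean of Serpina3g was 32.8 in H3.3 G34R, 157 in H3.3 K27R and 25.6 in H3.3 G34W K27R. It was 64.7 in H3.1 wild type and 142 in H3.1 G34W. Of the lists, 10 of 14 chondrocyte genes, 14 of 30 Wnt pathway genes (2 were higher) and 17 of 41 oxidative phosphorylation genes were lower, and 9 of 23 cholesterol genes and 9 of 18 contractile genes were higher (1 contractile gene was lower). The 2 replicates of H3.3 G34W differed widely, and 1361 genes were called when only these 2 groups were fitted.

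Against H3.3 G34W K27R, which carries the same change at residue 34 with arginine at lysine 27 in place of lysine 36, 2388 genes (19.1%) were higher and 2236 (17.9%) lower in the double mutant. The interferon response separated the pair: 39 of 40 interferon-stimulated genes, 15 of 15 interferon-inducible GTPases and 17 of 17 class I presentation genes were called lower in the double mutant, with medians of -4.19, -5.81 and -3.99. Iigp1, an interferon-induced GTPase, was at 18.6 and 31.7 in the double mutant, 136 and 161 in the wild type and a mean of 15490 in H3.3 G34W K27R, and Gbp4 at 11.1 and 3.34 against a mean of 5152. On the other side all 30 G2 and M phase genes and 18 of 33 S phase genes were called higher. Mki67 had a mean of 523 in H3.3 G34W K27R against 18179 and 18781, and Lcp1, an actin bundler, of 6.73 against 713 and 786.

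Against H3.1 wild type, the control nearest to the double mutant in overall expression, 1702 genes (13.6%) were higher and 1496 (12%) lower. Of these, 496 (3.97%) were higher and 78 (0.624%) lower by at least 2 on the log2 scale, so the largest differences were mostly on the higher side. Fbn2, a fibrillin of elastic fibre microfibrils, was at 3775 and 3777 against a mean of 18.4, Igsf10 at 3981 and 4157 against 50.8, and Slit3, an axon guidance ligand, at 240 and 256 against 2.71. None of these 3 was called against H3.3 wild type. Proliferin genes were lower, with Prl2c3 at 33.1 and 27.4 against a mean of 1215, and these near-identical genes share reads. Of the lists, 23 of 40 interferon-stimulated genes, 11 of 21 elastic fibre genes and 8 of 12 small leucine-rich proteoglycans were higher, and 14 of 33 S phase genes lower. When closely agreeing pairs counted as 1 sample no gene was called by limma (1200 had an unadjusted p under 0.05), and without single libraries the number ran from 303 to 4810.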

How the data were processed

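RNA of 16 libraries of C3H10T1/2 cells, 2 for each of 8 histone transgenes, was sequenced after mRNA enrichment. Per the submitters' processing notes RSEM 1.2.4 and the mm9 build were used. The deposited signal is an expected count times 1 constant per library, a median normalization by the authors per the file name. Aligner, annotation and filters are not given in the sources used here. Divided by that constant, between 41.5% and 47.5% of values were whole reads and the rest were fractions of a read, so they were not tested as whole-number counts.

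Values were tested as log2(value + 1), which understates the change of low genes, with a two-sided moderated test in limma 3.58.1 (R 4.3.3, statmod 1.5.0; trended, robust prior variance). One fit held all groups, as 15 samples with 7 residual degrees of freedom. P-values were adjusted by Benjamini and Hochberg over the 12492 genes, and a gene was called under 0.05. The 2 wild-type libraries were averaged to 1 sample. A gene passed the filter where its mean over the 4 libraries was at least 10: 225 of those tested had a mean under 10 in the wild type and 362 in the double mutant. These genes passed only through the group where they were higher, which fixed their direction, and the list counts include them. The comparisons share the double-mutant libraries, and those with the wild type share its libraries.

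Members, lists and named genes were chosen with earlier results of these data known. Named genes are, in each direction, the 15 called genes with the largest fold change that reach a mean of 50 in either group without overlap, the 5 largest in the other comparisons, up to 4 members of a list, and fixed genes; provisional symbols were left out. Some genes that the rule names are not reported here. Other members of lists that are named, and the genes drawn in the plots, were picked after their values were seen. Replicate numbers did not pair the samples: the correlation of replicate differences between the 2 groups was -0.05. Bounds use a floor of 3 reads per library, and intervals (95%) cover counting error only. Transcript lengths come from GENCODE and were matched by symbol for 98.9% of genes. Alternatives were other pseudocounts (0.5 and 5), filters, TMM and quantile scaling, other variance settings, other treatment of close pairs, 2 groups alone, a replicate block, leaving out each library, and, chosen after the data were seen, leaving out the H3.1 libraries and a length adjustment.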

Additional observations from a re-analysis of the deposited data

How the results depend on the processing

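For the double mutant against H3.3 wild type (2190 genes), the count stayed within 1.5 times under other pseudocounts, filters, scalings and variance settings and the length adjustment, and no gene called changed direction under any alternative. It was 4254 with the wild-type libraries counted separately, 27 with 5 close pairs counted as 1 sample each, 10310 with the 2 groups alone and 4842 without the H3.1 libraries. With a replicate block and the wild-type libraries separate it was 4011, but the replicate numbers did not pair the samples. Leaving out 1 library gave 827 to 3325.

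Against H3.3 G34W (3798 genes) the count was 133 with close pairs as 1 sample, 1361 with the 2 groups alone, 6173 without the H3.1 libraries and 1594 to 4814 without 1 library. Against H3.3 G34W K27R (4624) it was 199 with close pairs as 1 sample, 10084 with the 2 groups alone and 2410 to 5659 without 1 library. Against H3.1 wild type (3198) it was 0 by limma with close pairs as 1 sample (1200 genes at an unadjusted p under 0.05) and 303 to 4810 without 1 library. The cause of these differences was not tested, beyond the samples that each alternative takes away.

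Of 169 named genes called against the wild type, 65 lost the call in at least 1 fit without a library, 60 of them without either library of the double mutant in turn, and 156 with close pairs as 1 sample. The sign of 3 genes not called changed: Whsc1 (-0.0316 with quantile scaling and -0.26 with the length adjustment), Kdm2a (-0.0799) and Prl2c2 (0.0774), the last 2 with the length adjustment. Depth limits genes near the floor of 3 reads, such as Cdkn2a in the wild type, to a bound or an interval.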

Other observations

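Guidance genes of axons and vessels were called in both directions. For this list and those below, the shares over all genes tested were 8.51% called higher and 9.02% called lower. Of 39 tested, 5 were higher and 6 lower against H3.3 wild type, or 0 and 4 to 5 without either double-mutant library. The secreted semaphorin Sema3c fell by 4.90 on the log2 scale, from 11942 and 12194 to 392.3 and 416. The receptor Robo2 was at 6.85 and 7.05 against 53.2 and 66.8. Sema3e and Plxna4, a semaphorin and a plexin receptor, were at 127 and 131 against 11.5 and 27.7 and at 188 and 201 against 25.2 and 20.3, and both lost their calls without either double-mutant library (adjusted p by limma = 0.064 to 0.074).

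Of 19 p53 target genes 1 was higher and 5 lower, or 0 and 1 to 2 without either double-mutant library. Phlda3, an inhibitor of AKT, was at 3676 and 3705 against 15888 and 15671, and the death receptor Fas at 497 and 530 against 1561 and 1539 (adjusted p by limma = 0.095 and 0.081 without replicate 1 or 2 of the double mutant). Of 23 genes of the unfolded protein and stress response 4 were higher and 3 lower, or 1 and 1 without either double-mutant library. Chac1, an enzyme that breaks down glutathione, was at 3729 and 3755 against 940 and 945, and Sdf2l1, of the endoplasmic reticulum, at 388 and 354 against 1846 and 1924. Among 28 glycolysis and hypoxia genes 1 was higher and 4 were lower, or 0 and 3 without either double-mutant library, among them Car9, a carbonic anhydrase induced by low oxygen, at 34.2 and 30.8 against 303 and 316. Of 11 Hox genes tested Hoxa7 was higher, at 744 and 719 against 314 and 315, and Hoxc9 was at 0.978 and 1.76 against 63.2 and 57.1, a call lost without either double-mutant library (adjusted p by limma = 0.13 and 0.10).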
